A study of Rattus norvegicus with 6 samples.

Results

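The expression of 7 genes that skeletal muscle is known for was read out in RNA sequencing libraries of rat bone. They were picked by their Ensembl identifiers and are Acta1 (ENSRNOG00000017786), Ckm (ENSRNOG00000016837), Eno3 (ENSRNOG00000004078), Mb (ENSRNOG00000004583), Myh7 (ENSRNOG00000016983), Ryr1 (ENSRNOG00000020557) and Pvalb (ENSRNOG00000006471). All 7 were in the deposited table of 32883 genes. The symbols were given together with the identifiers; the rat gene table used here pairs no Ensembl identifier with a symbol, so the pairing was not checked and no gene was dropped. The libraries came from bone of 3 exercised and 3 control rats (Rattus norvegicus), all of wild-type genotype. The series title speaks of adult animals and of moderate-intensity treadmill running. The exercised rats have the treatment label exercise and the control rats the label no. The labels name bone as the tissue and osteocyte (written oeteocyte) as the cell type, but the extraction note mentions a cell and no bone site, and no step that removes soft tissue or marrow is given in the sources used here.

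The 7 genes cover the parts of a muscle fibre. Acta1 encodes the actin of the skeletal muscle thin filament, and Myh7 the beta myosin heavy chain, the motor of slow fibres, which the heart also uses. Ryr1 encodes the channel that releases calcium from the sarcoplasmic reticulum to start a contraction, and Pvalb encodes parvalbumin, a calcium buffer that in rodents is abundant in fast fibres and in some neurons. Ckm encodes muscle creatine kinase, which regenerates ATP from phosphocreatine, Eno3 the muscle enolase of glycolysis, and Mb myoglobin, the oxygen-binding protein of oxidative fibres. Bone lies against muscle and tendon, and skeletal muscle RNA is a known companion of RNA from dissected bone. Myosin heavy chain genes and actin genes are families with close copies, and the sources used here do not say how the counting divided reads between copies, so the counts of Myh7 and Acta1 are uncertain to that degree.

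Promoter sequence is given for the genes of the thin filament, creatine kinase, myoglobin and the calcium release channel. They were printed because their listed gene start lies at most 100 bases inside the annotated span of the gene. The sequences are the 250 bases before the gene start in the RefSeq promoter table for rat assembly GRCr8, printed 5′ to 3′ on the strand of the gene. The windows are chr19:68784195-68784444 (minus strand) for Acta1, chr1:88189211-88189460 (plus strand) for Ckm, chr7:110647743-110647992 (minus strand) for Mb and chr1:93551306-93551555 (minus strand) for Ryr1. They belong to the symbols and not to the identifiers of the count table, whose assembly is not given in the sources used here. Capitals mark E-boxes, the letters CANNTG bound by myogenic regulatory factors among others, and in Acta1 also a CArG box, the site of serum response factor. 
Acta1: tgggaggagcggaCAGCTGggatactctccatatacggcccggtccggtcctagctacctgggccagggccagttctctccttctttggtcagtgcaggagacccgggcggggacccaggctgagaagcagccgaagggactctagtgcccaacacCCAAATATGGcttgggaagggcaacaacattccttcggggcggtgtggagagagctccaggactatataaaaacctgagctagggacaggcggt
Ckm: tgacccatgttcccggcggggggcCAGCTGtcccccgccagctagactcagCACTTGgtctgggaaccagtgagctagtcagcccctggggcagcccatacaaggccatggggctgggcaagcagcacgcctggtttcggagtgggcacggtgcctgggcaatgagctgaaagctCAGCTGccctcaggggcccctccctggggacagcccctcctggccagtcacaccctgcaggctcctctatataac
Mb: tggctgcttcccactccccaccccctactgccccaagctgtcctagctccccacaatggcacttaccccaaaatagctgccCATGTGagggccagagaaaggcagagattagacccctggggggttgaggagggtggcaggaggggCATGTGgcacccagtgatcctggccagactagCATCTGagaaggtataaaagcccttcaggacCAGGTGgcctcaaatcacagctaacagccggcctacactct
Ryr1: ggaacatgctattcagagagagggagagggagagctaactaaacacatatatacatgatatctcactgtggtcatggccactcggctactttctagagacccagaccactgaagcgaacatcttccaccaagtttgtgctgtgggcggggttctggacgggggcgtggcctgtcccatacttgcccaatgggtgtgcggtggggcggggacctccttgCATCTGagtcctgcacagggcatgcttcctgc

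The 4 windows held 9 E-boxes, and each held at least 1. E-boxes are common: 65.5% of the 33469 promoters in the table hold one in the same 250 bases. The narrower E-box CAGCTG was present in Acta1 and Ckm, and in 12.0% of all promoters. The CArG box lay 94 bases before the start of Acta1 (its first base), and 1.497% of all promoters have one. No MEF2 site was found in the 4 windows, against 2.96% of all promoters. These letters read the same on both strands, CAGCTG is itself a CANNTG, and a match is a description of the sequence only. For Eno3, Myh7 and Pvalb the table takes a gene start that lies 306, 1657 and 2180 bases inside the annotated span of the gene, and their windows are not shown; for Ckm it lies 79 bases inside.

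Every library carried the muscle genes, though not each gene at a high level. Together the 7 genes took 6.10%, 5.85% and 2.08% of all counts in exercised replicates 1, 2 and 3, and 5.85%, 4.30% and 6.997% in control replicates 1, 2 and 3. The library of exercised replicate 3 held the least and that of control replicate 3 the most, a 3.37-fold difference between single animals. Each share rests on 313110 to 1268235 counts in libraries of 14056743 to 18126584, and the Wilson 95% interval of the lowest share ran from 2.07% to 2.08%, which covers counting error only. The mean share was 4.68 ± 2.26% in exercised and 5.71 ± 1.36% in control bone (SD, n = 3 each), and the groups overlapped. Without exercised replicate 3 the order of the means turned round, since the difference in summed level was then 2657 CPM (counts relative to the library total), against -10359 CPM over all 6 libraries. The series has no library labelled as muscle or as bone freed of muscle, so these shares have no background measured in the same way. Bulk libraries do not tell fewer muscle cells from less muscle RNA per cell. Whether the RNA came from muscle adhering to the bone was not tested.

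**Figure D1:**
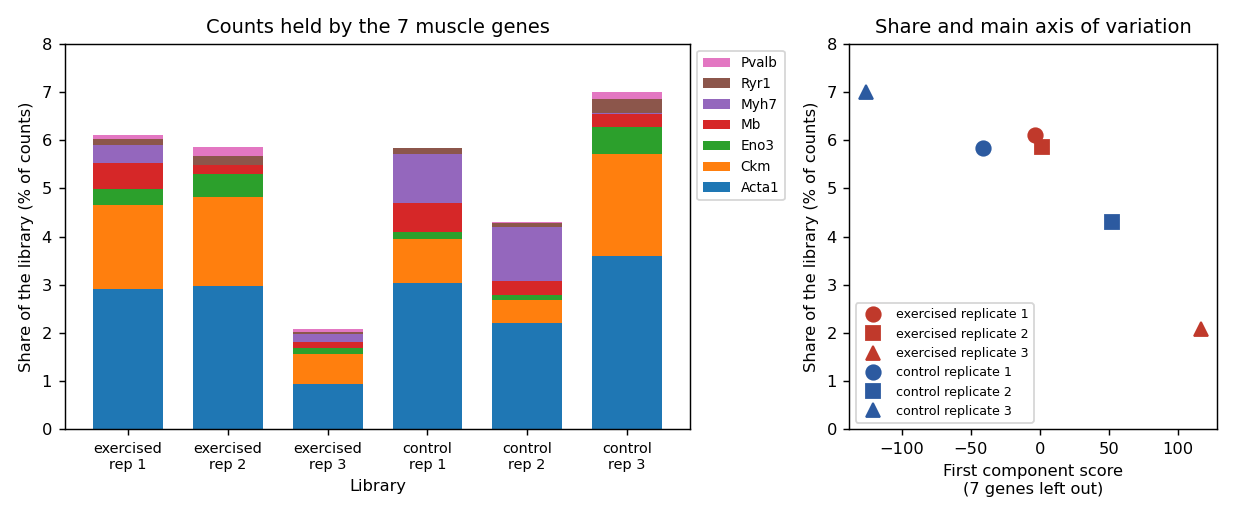
Left, stacked bars give the percent of each library's counts held by the 7 genes; the lowest bar is 2.08% in exercised replicate 3 and the highest is 6.997% in control replicate 3. Right, the same share (y axis, %) is plotted against the score on the first principal component of all other tested genes (x axis), on which control replicate 3 lies at -126.0 and exercised replicate 3 at 116.8.

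The muscle share ran along the main axis of variation among these libraries. The first principal component of the log2 CPM of the other tested genes, with the 7 muscle genes left out, held 65.4% of the variance. Exercised replicates 1, 2 and 3 scored -3.46, 1.67 and 116.8 on it, and control replicates 1, 2 and 3 scored -41.6, 52.6 and -126.0. The library with the highest muscle share had the lowest score, and the library with the lowest share had the highest score. Over the 6 libraries the log2 of the summed level and the score had a Pearson r of -0.87 and a Spearman rho of -0.83, and r was -0.83 without control replicate 3 and exercised replicate 3, the libraries farthest out. No p is given for this relation, because the sum is a score over genes chosen with results of these data known. Acta1 made up the largest part of the sum in every library, and the relation was not computed for each muscle gene alone. How many other genes follow this axis as closely was not computed. Only the 7 genes were left out, so any other muscle genes among those tested remain in the component. The summed level is scaled to the library totals, and the component to library totals adjusted by TMM factors (0.795 in control replicate 3 to 1.208 in control replicate 2). The part of muscle RNA in that axis was not tested.

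Actin and the calcium release channel, the structural and excitation genes, were lowest in exercised replicate 3 and highest in control replicate 3. Acta1 had 29173, 29730 and 9497 CPM in exercised replicates 1, 2 and 3, and 30446, 22024 and 35993 CPM in control replicates 1, 2 and 3. Exercised replicate 3 lay below the other 5 libraries, and the groups overlapped. Ryr1 had 1200, 1820 and 474 CPM in exercised and 1140, 765 and 2897 CPM in control libraries, again lowest in exercised replicate 3 and highest in control replicate 3. The highest library exceeded the lowest 3.79-fold for Acta1 and 6.11-fold for Ryr1. Among the 9288 tested genes that averaged 10 CPM or more, the median of this ratio was 2.37, and 27.9% and 16.03% of them had a wider one than Acta1 and Ryr1.

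Creatine kinase, enolase and myoglobin are genes of energy supply. Ckm had 17311, 18497 and 6095 CPM in exercised and 9103, 4896 and 21205 CPM in control replicates 1, 2 and 3. Eno3 had 3466, 4719 and 1386 CPM in exercised and 1337, 864 and 5582 CPM in control libraries. For both genes control replicate 3 was the highest library and control replicate 2 the lowest, so the control group spanned all exercised values. Mb, the oxygen store, had 5425, 1898 and 1165 CPM in exercised and 6187, 2922 and 2756 CPM in control libraries. Its highest library was control replicate 1, a library in which Ckm and Eno3 were among the lower ones. The highest library exceeded the lowest 4.33-fold for Ckm, 6.46-fold for Eno3 and 5.31-fold for Mb. Of the 9288 genes, 23.7%, 15.1% and 18.6% had a wider range than Ckm, Eno3 and Mb.

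Myh7, the slow myosin, had the widest range of the 7 genes. Its level was 3682, 22.5 and 1580 CPM in exercised replicates 1, 2 and 3, and 10118, 11384 and 56.0 CPM in control replicates 1, 2 and 3. One library of each group, exercised replicate 2 and control replicate 3, held little of it beside the other libraries, although both were rich in Acta1. Among the 32883 genes it still ranked 5903 by count in exercised replicate 2 and 2210 in control replicate 3. The low values rest on 321 counts in exercised replicate 2 (Wilson 95% interval 20.2 to 25.1 CPM) and 1015 counts in control replicate 3 (52.7 to 59.5 CPM). The highest library exceeded the lowest 506-fold, and 55 of the 9288 genes (0.592%) had a wider range. Within groups the range was 164-fold among exercised and 203-fold among control libraries.

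Pvalb, the calcium buffer of fast fibres, ran the other way. It had 791, 1862 and 555 CPM in exercised and 165, 108 and 1477 CPM in control replicates 1, 2 and 3. The libraries with the least Myh7, exercised replicate 2 and control replicate 3, had the most Pvalb, and the controls with the most Myh7 had the least. Its highest library exceeded its lowest 17.2-fold, a ratio that 7.38% of the 9288 genes surpassed.

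**Figure D2:**
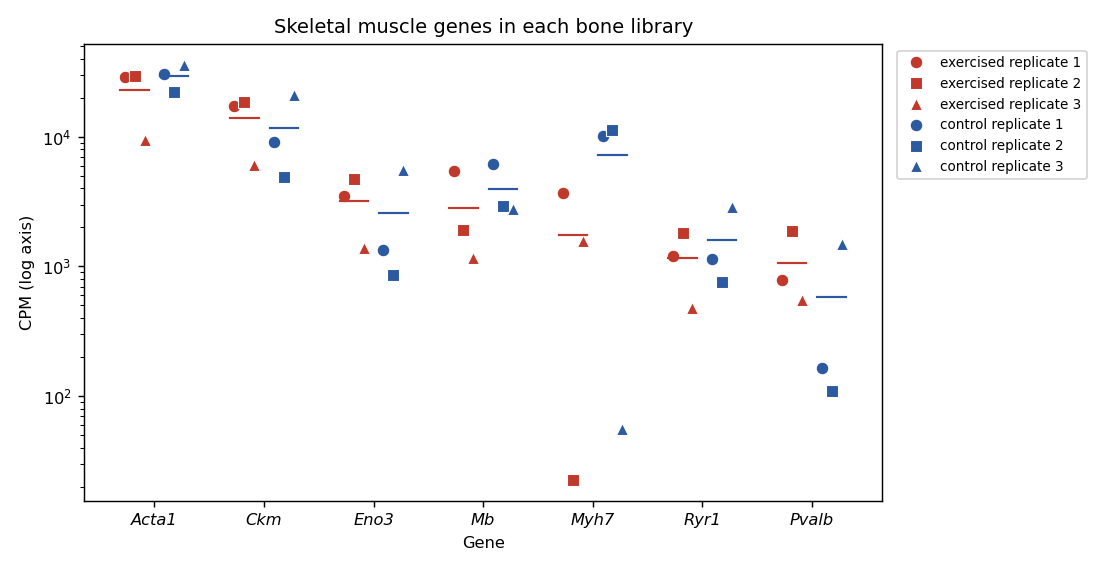
Each point is the level of 1 gene in 1 library (CPM, log axis; CPM also grows with gene length, so levels of different genes are not compared), exercised left and control right of each gene name, with the bar at the group mean of 3. Myh7 was at 22.5 CPM in exercised replicate 2 and 56.0 CPM in control replicate 3, against 11384 CPM in control replicate 2.

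The 7 genes did not vary as 1 block. Of their 21 pairs, 14 correlated positively and 7 negatively across the 6 libraries (log2 CPM with a prior count of 2), with a median Pearson r of 0.47. The closest pair was Ckm and Eno3, both of energy supply, with r = 0.97 and rho = 0.94 (two-sided exact permutation p = 0.00694 and 0.0167, and 0.0729 and 0.0875 after Benjamini-Hochberg adjustment over the 21 pairs). Eno3 and Pvalb had r = 0.93 and rho = 0.94 (exact permutation p = 0.00694 and 0.0167, adjusted 0.0729 and 0.0875). Acta1 and Ryr1 had r = 0.87 and rho = 0.83 (exact permutation p = 0.0111 and 0.0583, adjusted 0.0778 and 0.153). These 3 correlations kept their sign without the 2 libraries farthest from the median of the first gene, at r = 0.99, 0.86 and 0.85. Ryr1 went with Ckm (r = 0.87, rho = 0.94) as closely as with Acta1, and Mb went with neither Ckm (r = 0.21) nor Eno3 (r = -0.02).

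Other correlations rested on the outermost libraries. Without the 2 farthest from the median of the first gene, 5 of the 21 pairs changed sign. Acta1 and Mb had r = -0.30, against 0.68 over all 6 libraries, and Ckm and Mb had -0.70, against 0.21. Myh7 and Ryr1 had 0.57, against -0.68, and Mb and Ryr1 had -0.35, against 0.29. Eno3 and Mb were near 0 either way.

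Myh7 stood against the genes of fast and glycolytic fibres. With Pvalb it had r = -0.89 and rho = -0.94 (two-sided exact permutation p = 0.0361 and 0.0167, adjusted 0.136 and 0.0875). Without the 2 libraries farthest for Myh7, exercised replicate 2 and control replicate 3, r with Pvalb was -0.85. With Eno3, Myh7 had r = -0.83 and rho = -0.89 (exact permutation p = 0.05 and 0.0333, adjusted 0.15 and 0.117). Here the 2 libraries farthest for Eno3, control replicates 3 and 2, were left out, and r was -0.71. That value still includes exercised replicate 2, the library lowest in Myh7. The correlation of Myh7 and Eno3 without the 2 libraries farthest for Myh7 was not computed. Mb was the only one of the other 6 genes that correlated positively with Myh7 over all 6 libraries, at r = 0.47 and rho = 0.66 (exact permutation p = 0.333 and 0.175, adjusted 0.467 and 0.306). Of the 21 pairs, 6 had an unadjusted exact p under 0.05 for r, and 0 an adjusted one. Without Myh7, 13 of 15 pairs were positive and the median r was 0.68. Correlations are frequent in these libraries: of the 14488 other tested genes, 0.559% correlated with Ckm at least as highly as Eno3 did, 1.64% with Eno3 as highly as Pvalb did and 7.33% with Acta1 as highly as Ryr1 did, and 0.856% correlated with Myh7 at least as negatively as Pvalb did. For other pairs this share was 3.66% (Ckm and Ryr1), 16.9% (Acta1 and Ckm) and 29.5% (Ckm and Myh7), and it reached 71.3% for Eno3 and Mb. No such background was computed for the counts of positive pairs or for the medians of r. Computed on deviations from the group means, r was 0.97 for Ckm and Eno3 and -0.92 for Myh7 and Pvalb. There Eno3 and Mb changed sign (-0.02 over the 6 libraries, 0.12 on deviations), so that 15 pairs were positive, Acta1 and Pvalb had r = 0.56, against 0.21, and Ryr1 and Pvalb 0.90, against 0.59.

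**Figure D3:**
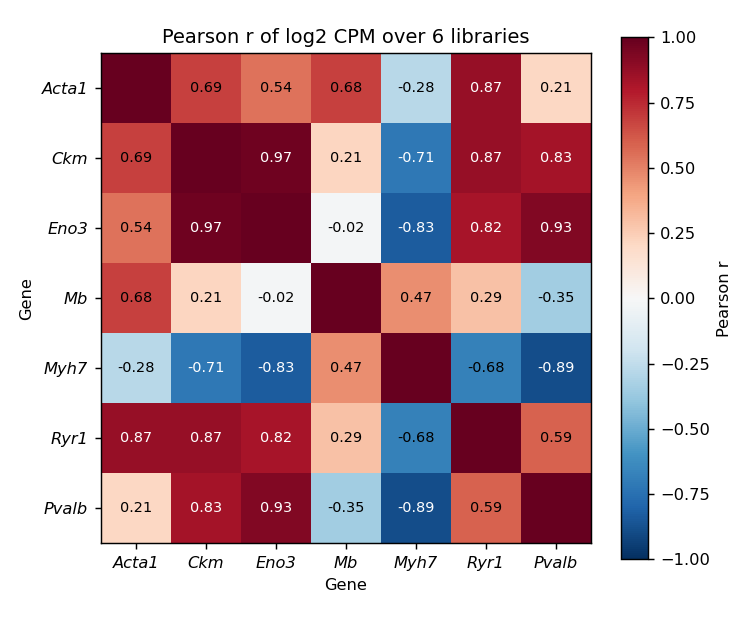
Colour and number give the Pearson r of log2 CPM over the 6 libraries for each pair of genes. Ckm, Eno3, Ryr1 and Pvalb correlated positively with each other (0.59 to 0.97), while Myh7 correlated negatively with all genes except Mb (0.47); its sign with Ryr1 turned without the farthest 2 libraries.

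Ratios of genes within a library do not depend on the scaling. Relative to Acta1, Myh7 spanned 683-fold over the 6 libraries, more than its CPM did, whereas Pvalb (12.7-fold), Eno3 (4.05-fold), Mb (3.18-fold), Ckm (2.89-fold) and Ryr1 (2.32-fold) spanned less than their CPM did. Per 1000 Acta1 counts, exercised replicates 1, 2 and 3 had 126, 0.756 and 166 Myh7 counts, and control replicates 1, 2 and 3 had 332, 517 and 1.56. Per 1000 Acta1 counts, Pvalb had 27.1, 62.6 and 58.4 counts in exercised and 5.42, 4.92 and 41.0 counts in control libraries. In exercised replicate 3, the library with the lowest summed share of the 7 genes, this ratio was among the higher ones. The ratio of Myh7 to Pvalb spanned 8695-fold, between 12.1 Myh7 counts per 1000 Pvalb counts in exercised replicate 2 and 105003 in control replicate 2. Eno3 relative to Ckm spanned 1.79-fold.

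Creatine kinase relative to actin was alike in 4 of the libraries. Per 1000 Acta1 counts, Ckm had 593, 622 and 642 counts in exercised replicates 1, 2 and 3, and 299, 222 and 589 counts in control replicates 1, 2 and 3. The lowest exercised and the highest control ratio were nearly equal, and control replicates 1 and 2 were lower. Eno3 per 1000 Acta1 counts was 119, 159 and 146 in exercised and 43.9, 39.2 and 155 in control libraries, where the groups overlapped through control replicate 3. Control replicates 1 and 2 were thus low in Ckm, Eno3 and Pvalb and high in Myh7 relative to Acta1. Mb per 1000 Acta1 counts was 186, 63.9 and 123 in exercised and 203, 133 and 76.6 in control libraries, lowest in the libraries that had the least Myh7. These ratios were chosen after the values were seen and have no test.

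**Figure D4:**
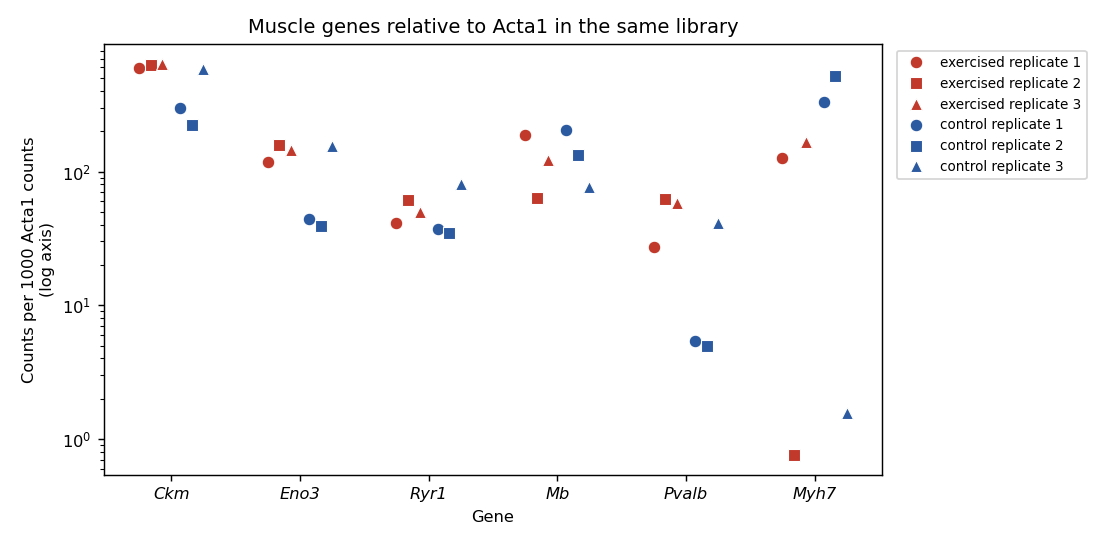
Points give counts per 1000 Acta1 counts of the same library (log axis), exercised left and control right of each gene name, with 1 symbol per replicate number. Myh7 was at 0.756 in exercised replicate 2 and 1.56 in control replicate 3, and Pvalb at 5.42 and 4.92 in control replicates 1 and 2, against 41.0 in control replicate 3.

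None of the 7 muscle genes was called between exercised and control bone. All 7 passed the filter on low counts, and edgeR's quasi-likelihood test gave 0 of 7 a Benjamini-Hochberg adjusted p under 0.05; over all 14495 genes tested, 0% were called. At an unadjusted p under 0.05 there were 0 of 7, against 1.7% of the genes tested. DESeq2's Wald test called 0 of 7 as well, against 0.00484% of 20681 genes. In none of the 7 did the CPM of the groups stand apart without overlap, against 6.44% of the tested genes.

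The estimates were wide for each gene. Myh7 averaged 1761 ± 1836 CPM in exercised and 7186 ± 6207 CPM in control bone (SD, n = 3 each). On the log2 scale the difference was -1.93 (SE 1.94, 95% interval -6.60 to 2.74, adjusted p = 0.889 by edgeR). The spread within each group was about as large as its mean. Pvalb averaged 1069 ± 697 CPM in exercised and 583 ± 774 CPM in control bone, a log2 fold difference of 0.58 (SE 1.18, 95% interval -2.25 to 3.42, adjusted p = 0.928). Without control replicate 3 the difference of Pvalb was 3.01 (SE 0.80, unadjusted p = 0.0106, adjusted p = 0.989 by edgeR). In that fit 355 of 14961 genes had an unadjusted p under 0.05. Pvalb was the only muscle gene to reach it in any fit. The library left out held 1477 CPM of Pvalb, against 165 and 108 CPM in control replicates 1 and 2, so leaving it out removed the overlap of the groups.

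The intervals of the other 5 genes were also wide. Acta1 averaged 22800 ± 11524 CPM in exercised and 29487 ± 7033 CPM in control bone (SD, n = 3 each), with a log2 fold difference of -0.47 (95% interval -3.14 to 2.20, adjusted p = 0.939 by edgeR). Ryr1 averaged 1165 ± 674 and 1600 ± 1139 CPM in exercised and control bone (-0.65, -2.69 to 1.39, adjusted p = 0.895), and Mb 2830 ± 2277 and 3955 ± 1935 CPM (-0.52, -2.54 to 1.504, adjusted p = 0.910). Ckm averaged 13968 ± 6844 CPM in exercised and 11735 ± 8467 CPM in control bone (0.06, -2.52 to 2.64, adjusted p = 0.994). Eno3 averaged 3191 ± 1684 CPM in exercised and 2594 ± 2598 CPM in control bone (0.07, -2.37 to 2.51, adjusted p = 0.992). All 7 intervals include 0, and each also includes a 2-fold difference in either direction, so a change of that size is not excluded.

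**Figure D5:**
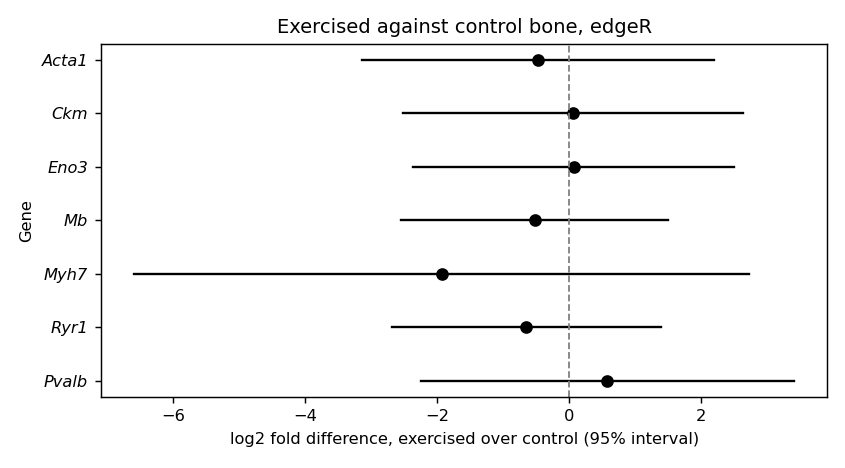
Points give the log2 fold difference of each gene, exercised over control, by edgeR, and lines its 95% interval. Every interval crosses 0, and that of Myh7 is the widest, from -6.60 to 2.74.

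Among the other genes, the pattern most like the mean of the 7 standardized profiles was that of ENSRNOG00000011794. Over the 6 libraries its log2 CPM had r = 0.9988 with that mean, the highest of the 9281 candidates that averaged 10 CPM or more. It had 134, 108 and 40.2 CPM in exercised and 91.6, 56.8 and 149 CPM in control replicates 1, 2 and 3. ENSRNOG00000017548 came next, at r = 0.9946, with 34.5, 33.7 and 21.7 CPM in exercised and 29.6, 24.5 and 37.0 CPM in control libraries. Both are lowest in exercised replicate 3 and highest in control replicate 3. They were picked for this likeness, so the correlations are a description, and the files give neither a symbol. The 7 genes themselves correlated with the mean profile at 0.92 (Ckm) down to -0.46 (Myh7).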

How the data were processed

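RNA was measured by sequencing in 6 bone libraries, 3 of exercised and 3 of control rats, assigned through the library names in the labels; 0 value columns were left without a sample. The deposited values are counts, 1 whole number per gene and library; per the file headers they are FPKM, which whole numbers with totals of 14056743 to 18126584 contradict. The submitters' processing notes list, without roles, HISAT2 2.1.0, StringTie, edgeR, fastp 0.19.5 and CASAVA 1.8, and the human and mouse builds hg38 and mm10; the rat build is not given in the sources used here. 0 of 32883 identifiers matched the RefSeq table (GRCr8), so marker lists of other cell types, osteocytes included, were not analysed here.

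Levels are CPM by library total, with Wilson intervals (statsmodels 0.14.6). The test across all genes was edgeR 4.0.16 (R 4.3.3), quasi-likelihood, with TMM scaling, filterByExpr (minimum count 10, minimum total 15), no covariate and an adjusted p threshold of 0.05. Standard errors are the absolute log2 fold difference over the square root of F. The alternatives tried were limma voom (limma 3.58.1), DESeq2 1.42.0, a replicate block, a covariate, other scalings, all genes unfiltered and each library left out. The functions were tested on simulated data. Correlation p-values are exact, over all 720 orders of the libraries. No 2 libraries of a group were alike within sampling noise (chi-square per degree of freedom at least 70.1). Each group is stated to hold 3 rats, so p-values measure the spread between animals together with that of library making. The genes and lists were chosen with earlier results of these data known. Every muscle gene was named, plus the 2 genes most like their mean profile.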

Additional observations from a re-analysis of the deposited data

How the results depend on the processing

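Of 13 alternatives for the comparison of exercised with control bone, 12 gave 0 genes past the threshold and DESeq2 gave 1, which was none of the 7 muscle genes; no alternative called a muscle gene, and their lowest adjusted p was 0.640. Genes at an unadjusted p under 0.05 ranged from 54 (without control replicate 1) to 1315 (without control replicate 2), against 247, and the fit with the replicate block gave 0 genes past the threshold and 212 at an unadjusted p under 0.05. The deviations of same-numbered libraries from their group means correlated at 0.32 (number 1), -0.41 (number 2) and -0.49 (number 3). The signs differ, and with 3 libraries per group these values cannot decide whether the numbers pair the libraries. Leaving out 1 library at a time moved the log2 fold difference between -0.37 and 1.04 for Ckm and -0.40 and 1.59 for Eno3. It moved between -1.19 and 0.35 for Ryr1 and -0.19 and 3.01 for Pvalb, so the sign of these 4 rests on single libraries. Acta1 (-0.76 to -0.07), Mb (-1.52 to -0.03) and Myh7 (-3.30 to -1.38) kept their sign, though Acta1 and Mb came close to 0. With the summed muscle level as a covariate, chosen after seeing the data, Ryr1 changed sign to 0.0231. That sum contains Ryr1 and each of the other muscle genes, so a shift of their differences in this fit is partly built in. No muscle gene changed sign under the other scalings. Leaving out 1 library moved the difference in summed level between -17491 and 2657 CPM, positive only without exercised replicate 3, and the median pairwise correlation between 0.38 and 0.69, the highest without exercised replicate 3. The cause was not tested. Every value of the 7 genes rests on at least 321 counts, so counting error is small beside the spread between animals.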
